A study of Mus musculus with 5 samples.

Results

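Interferon-induced effector genes were compared between the livers of PBS-treated and CSF1-Fc-treated mice. They were taken by a rule on gene symbols, written with earlier results of these data known. Of 18820 genes named on the array, 61 were members. The 5 families set side by side held 32 of them, with 11 OAS genes, 5 IFIT genes, 7 IFITM genes, 7 GBP genes and 2 IRG genes. The other 29 were 8 PYHIN genes, 2 Mx genes, 5 sensors of foreign RNA or DNA, *Isg15* with *Usp18*, *Parp14*, 3 genes of the Ifi27 group and 8 further effectors.

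Liver RNA of 5 adult C57BL/6 mice was measured, with 1 array for each mouse. The 2 control mice received PBS, and the 3 treated mice received CSF1-Fc, a fusion of the active part of pig CSF1 with the constant region of a pig antibody (hinge-CH3 of IgG1a). Injections were subcutaneous and daily for 4 days, and the mice were culled on day 5. The whole liver was used, so that cells of all types contributed to each value.

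Type I and type III interferons and interferon gamma act through their own receptors, and JAK kinases and STAT factors carry the signal to the nucleus. Factors of the STAT and IRF families then bind DNA elements near the genes, the interferon-stimulated response element (ISRE) and the gamma-activated site (GAS). In the liver, Kupffer cells, endothelial cells and hepatocytes can all respond to interferon, and macrophages express many of these genes at rest.

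The promoters of these genes are described before their levels, because the ISRE is the element by which many of them are known to be induced. The calls were already known when the promoters were read. RefSeq promoter windows on GRCm38.p6 were found for 44 of the 61 members, each with 250 bases before and 50 bases after the start. The ISRE core was searched on both strands as GAAA, any 2 bases and GAAA again, and overlapping matches were counted separately. It lay in a window of 26 of the 44 members (59.1%), against 3.99% of 27025 genes with a window. Among members that rose after CSF1-Fc, 15 of 22 held it (68.2%), and among the others 11 of 22 (50%). Those that rose without it were *Oasl1*, *Oasl2*, *Ifit2*, *Ifitm6*, *Ifi209*, *Ifi30* and *Samd9l*. The windows of *Ifit1*, which rose, and *Ifit1bl2*, which was not called, overlap on opposite strands, and the same 2 matches were counted for each. The GAS letters, searched as TTCNNNGAA on both strands, were in 11 of 44 members (25.0%) and in 9.55% of all genes, counted whether or not they overlapped an ISRE core. A match of letters is a description and not a bound site.

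The following stretches of genes that rose show the ISRE core in 4 of the families, in capitals and on the strand of each gene. That of *Oas3* is on the minus strand at chr5:120777670-120777769, with the core beginning 75 bases before the start. *Ifit3* is on the plus strand at chr19:34583329-34583428 and *Ifit3b* on the plus strand at chr19:34607757-34607856, and their stretches share an unbroken run of 68 bases that holds 2 matches. *Gbp2* is on the plus strand at chr3:142620553-142620652, and *Isg15* is on the minus strand at chr4:156200829-156200928 with 3 overlapping matches.
*Oas3*: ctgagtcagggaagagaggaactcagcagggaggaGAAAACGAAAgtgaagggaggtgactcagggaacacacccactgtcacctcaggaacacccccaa
*Ifit3*: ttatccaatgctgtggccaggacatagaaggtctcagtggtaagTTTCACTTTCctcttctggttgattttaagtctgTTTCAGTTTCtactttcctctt
*Ifit3b*: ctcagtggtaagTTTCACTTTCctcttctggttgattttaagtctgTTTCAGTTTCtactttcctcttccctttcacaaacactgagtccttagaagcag
*Gbp2*: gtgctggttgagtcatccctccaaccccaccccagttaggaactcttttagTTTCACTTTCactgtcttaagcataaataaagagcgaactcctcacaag
*Isg15*: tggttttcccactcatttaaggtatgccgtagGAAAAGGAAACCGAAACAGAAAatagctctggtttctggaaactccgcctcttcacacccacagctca

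Values are log2 of the deposited normalized intensities, and CSF1-Fc was compared with PBS in limma with adjustment over 35556 rows. A gene was called at an adjusted p under 0.05. A mean log2 intensity under 5 was taken as dim, and the size of a change from such a mean is uncertain. Levels of different genes were not ranked, since each rests on its own probes. Array correlations were 0.991 between PBS livers, 0.983 to 0.990 between CSF1-Fc livers and 0.960 to 0.973 between groups. With 2 mice against 3, an exact permutation test of a single gene cannot go below 0.1. The labels did not say whether mice shared a cage or litter. The paper treated male and female mice and does not state the sex of those on the arrays.

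Hepatocyte transcripts were strong on every array, with the summed intensity of 6 markers between 39766 and 43097 in PBS livers and between 34646 and 38413 in CSF1-Fc livers. None of the 6 was called, and 3 were lower at an unadjusted p under 0.05. Markers of macrophages moved with the treatment. Beside the marker counts in this paragraph, 8.34% of all named genes rose and 3.95% fell. All 11 macrophage markers rose, and their summed intensity was 3573 to 3679 in PBS livers and 15095 to 15778 in CSF1-Fc livers. Of 7 Kupffer cell markers 6 rose, from sums of 5954 to 6554 to sums of 18190 to 18782, with the defining marker *Clec4f* at mean log2 values of 9.95 and 11.89. The remaining marker, *C6*, was not called but was lower at an unadjusted p under 0.05 (difference -0.42). All 4 inflammatory monocyte markers rose, from 119 to 148 up to 1610 to 2053, and 8 of 10 neutrophil markers rose, from 217 to 313 up to 1694 to 2009. All 3 B cell markers rose (104 to 113 and 328 to 366), as did 1 of 5 T cell markers (132 to 136 and 155 to 168). Another T cell marker, *Cd4*, was not called but was lower at an unadjusted p under 0.05 (difference -0.51). None of 5 NK cell markers was called (61 to 75 and 90 to 133), although 4 were higher at an unadjusted p under 0.05. None of 7 plasmacytoid dendritic cell markers, of which *Bst2* is also a member here, was called (953 to 979 and 1142 to 1532), with 2 higher at an unadjusted p under 0.05, and *Siglech* stood at means of 4.30 and 4.23. Of 6 endothelial markers 1 fell (3227 to 3539 and 2467 to 2790). These markers were mixed, with 2 higher and 2 lower at an unadjusted p under 0.05. The part of these cells in the results that follow was not tested. In whole liver, fewer cells of a type and less RNA per cell cannot be told apart, nor can more cells and more RNA per cell.

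Of the 61 members, 32 rose after CSF1-Fc and 0 fell. Over all named genes, 8.34% were higher, 3.95% were lower and 12.3% were called in either direction. No member was lower at an unadjusted p under 0.05 either, and 44 were higher by that measure, which was not counted over all genes. The median log2 fold change was 1.00 over the members and -0.08 over all named genes. All 3 CSF1-Fc livers lay above both PBS livers for 45 members, where 18.2% of all genes did so, and below them for 1 member, where 29.3% of all genes did so. Both groups were dim for 10 members, none of which was called. Of the 51 others, 32 rose, against 13.7% of the 11086 genes that were not dim in both groups. Among these, 6 of the members and 534 of the genes were dim in PBS livers and passed only through the CSF1-Fc livers. Both shares thus depend in part on the change itself. The counts rest on few mice, since 20 members were called without PBS replicate 2 and 5 without moderation of the variance.

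**Figure D1:**
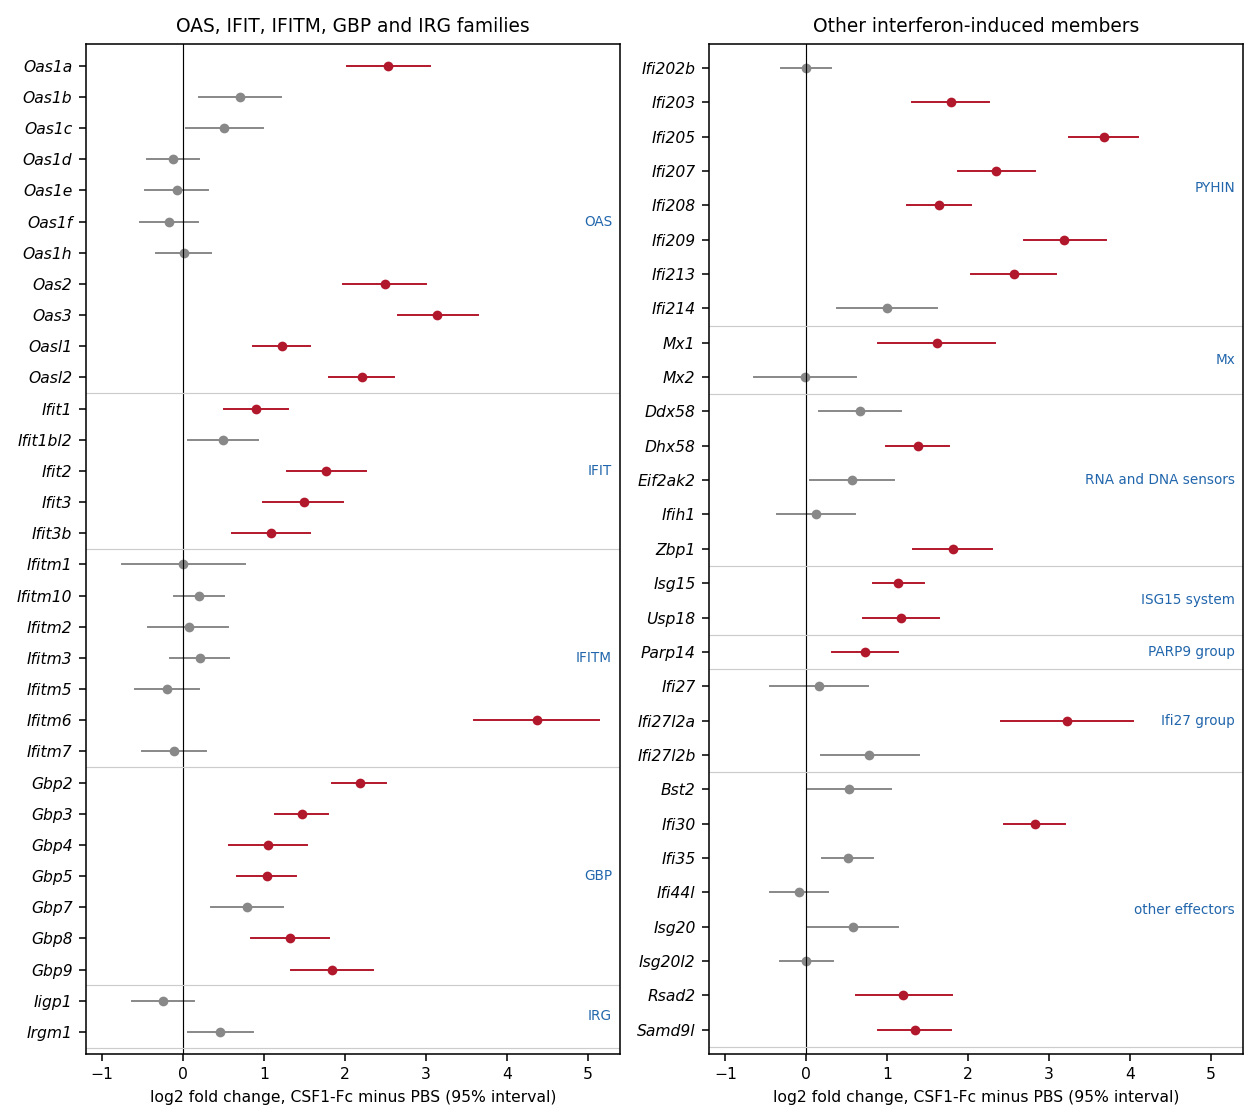
Log2 fold change of each of the 61 members (CSF1-Fc minus PBS, horizontal axis) with its 95% interval from limma, grouped by family; red points passed an adjusted p under 0.05 and grey points did not. Red points lie to the right of 0 in every family but IRG, and *Ifitm6* lies alone at 4.37 among IFITM genes between -0.20 and 0.21.

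The OAS enzymes sense double-stranded RNA and make short oligoadenylates, a messenger of the antiviral response. Of 11 members 5 rose, and the median log2 fold change was 0.70. Beside this count and those of the families and groups that follow, 8.34% of all named genes rose. All CSF1-Fc livers lay above both PBS livers for 18.2% of all named genes. The genes that rose were *Oas1a*, *Oas2* and *Oas3*, together with the OAS-like genes *Oasl1* and *Oasl2*, whose proteins carry ubiquitin-like domains. *Oas3* was at log2 intensities of 5.16 and 4.61 in the PBS livers and 8.12, 7.82 and 8.15 in the CSF1-Fc livers. Its difference of 3.14 (standard error 0.21, adjusted p = 0.000453) was a fold of 8.84, from a PBS mean that was dim. *Oas1a* was at 5.57 and 4.92 in PBS livers and at 7.80, 7.88 and 7.66 in CSF1-Fc livers, a difference of 2.53 (standard error 0.21, adjusted p = 0.000937). The groups stood well apart for both genes.

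*Oas2*, which makes the same kind of messenger, was at 6.40 and 5.92 in PBS livers and at 8.80, 8.37 and 8.78 in CSF1-Fc livers, and rose by 2.49 (standard error 0.21, adjusted p = 0.000968). *Oasl2* went from 7.47 and 7.12 to 9.60, 9.33 and 9.57, a difference of 2.21 (standard error 0.17, adjusted p = 0.000703). In both, CSF1-Fc replicate 2 was the lowest of the treated livers and still above either PBS liver. *Oasl1*, known to hold back translation of *Irf7*, rose by 1.22 (adjusted p = 0.00408). Its adjusted p was 0.0506 without PBS replicate 2.

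The remaining OAS genes were not called. *Oas1b*, which is truncated in C57BL/6 mice and in its full form protects against flaviviruses, was at 5.77 and 5.48 in PBS livers and at 6.60, 6.00 and 6.38 in CSF1-Fc livers (difference 0.70, adjusted p = 0.101). *Oas1c*, *Oas1d*, *Oas1e*, *Oas1f* and *Oas1h* were dim in both groups, with differences of -0.17 to 0.51. *Oas1h* was at 3.02 and 3.02 in PBS livers, against 3.19, 2.96 and 2.93 in CSF1-Fc livers, and *Oas1e* was at 3.02 and 2.93 against 2.82, 3.13 and 2.73. The groups overlapped for both. Of the 6 OAS genes that were not dim in both groups 5 rose, with a median of 2.35. *Oas3* was among these 6 only through its CSF1-Fc mean, so that this median depends in part on the change itself. A row shared by *Oas1a* and *Oas1g* rose by 2.60 (adjusted p = 0.000387) and cannot be assigned to either. *Oas2*, *Oas3* and the Oas1 genes lie together on chromosome 5, so that called and dim genes were neighbours.

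IFIT proteins bind foreign RNA, above all RNA with an unfinished cap, and block its translation. Of 5 members 4 rose, and all 5 had every CSF1-Fc liver above both PBS livers. The shares over all named genes were 8.34% and 18.2%. *Ifit2* was at 6.27 and 5.69 in PBS livers and at 7.90, 7.67 and 7.68 in CSF1-Fc livers, and rose by 1.77 (standard error 0.20, adjusted p = 0.00335). *Ifit3* was at 8.45 and 7.95 and at 9.92, 9.59 and 9.54, and rose by 1.49 (standard error 0.20, adjusted p = 0.00745). *Ifit3b*, its near copy, was at 4.48 and 4.28 and at 5.67, 5.62 and 5.12 (difference 1.09 from a dim PBS mean, adjusted p = 0.0233). Signal that the near-identical pair share could not be separated. *Ifit1* was at 7.05 and 6.70 and at 7.92, 7.64 and 7.77 (difference 0.90, adjusted p = 0.0214).

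CSF1-Fc replicate 1 was the highest array for all 5 IFIT genes. *Ifit1bl2* was dim, at 3.45 and 3.75 in PBS livers, against 4.28, 3.86 and 4.14 in CSF1-Fc livers, and was not called (difference 0.49, adjusted p = 0.162). The count of 4 rested on single arrays. It was 2 when PBS replicate 1 or CSF1-Fc replicate 1 was left out, 3 when CSF1-Fc replicate 2 was, and 1 when PBS replicate 2 was, with *Ifit2* alone called. In that last case the adjusted p was 0.171 for *Ifit1*, 0.058 for *Ifit3* and 0.175 for *Ifit3b*. *Ifit2*, *Ifit3*, *Ifit3b*, *Ifit1bl2* and *Ifit1* lie in a row on chromosome 19, with 1 other coding gene among them.

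IFITM proteins sit in cell and endosome membranes and hinder the entry of viruses. Of 7 members only *Ifitm6* rose in this comparison, where 8.34% of all named genes rose, and the family median was 0.07. *Ifitm6* was at 5.11 and 4.89 in the PBS livers and at 9.47, 9.88 and 8.76 in the CSF1-Fc livers. The difference of 4.37 (standard error 0.32, 95% interval 3.60 to 5.14, adjusted p = 0.0006) was a fold of 20.7. Every treated liver stood far above both controls, and CSF1-Fc replicate 3 was the lowest of them. The other genes of the family did not share it.

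*Ifitm3*, the member best known for blocking influenza virus, was at 12.57 and 12.36 in PBS livers and at 12.66, 12.83 and 12.53 in CSF1-Fc livers. Its difference was 0.21 (95% interval -0.16 to 0.57, adjusted p = 0.484). *Ifitm2* was at 11.95 and 11.45 and at 11.84, 11.93 and 11.53 (0.07, 95% interval -0.43 to 0.56, adjusted p = 0.893), and its 2 further rows gave 0.16 and 0.17. *Ifitm1* was at 7.83 and 7.36 and at 7.76, 8.02 and 7.03 (0.00, 95% interval -0.75 to 0.76, adjusted p = 0.996), and its further row gave 0.14. The groups overlapped for all 3, and the intervals reached at most 0.76, well short of the change of *Ifitm6*. The signs of *Ifitm1* and *Ifitm2* turned under quantile normalization, to -0.05 and -0.07. *Ifitm5*, an IFITM gene of bone, *Ifitm7* and *Ifitm10* had differences of -0.20, -0.11 and 0.20 and were not called.

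*Ifitm5*, *Ifitm2*, *Ifitm1*, *Ifitm3* and *Ifitm6* are consecutive coding genes on chromosome 7, so that the gene with a fold of 20.7 lay next to *Ifitm3*. The promoters of this pair are shown because the genes are neighbours and differed in response. Both are on the minus strand, that of *Ifitm3* at chr7:141010716-141010815 and that of *Ifitm6* at chr7:141016864-141016963, and each runs to 29 bases after the start. The ISRE core, in capitals, was present in 2 copies at *Ifitm3* and had no match in the window of *Ifitm6*. The GAS letters were found in both, beginning 10 bases before the start of *Ifitm6* and 14 bases after that of *Ifitm3*. Their longest shared run was 6 bases. Of the 7 IFITM genes, *Ifitm2* and *Ifitm3* held the core, and neither was called.
*Ifitm3*: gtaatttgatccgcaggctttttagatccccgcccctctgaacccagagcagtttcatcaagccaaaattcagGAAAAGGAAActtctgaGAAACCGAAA
*Ifitm6*: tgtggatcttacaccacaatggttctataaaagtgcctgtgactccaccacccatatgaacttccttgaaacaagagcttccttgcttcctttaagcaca

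**Figure D2:**
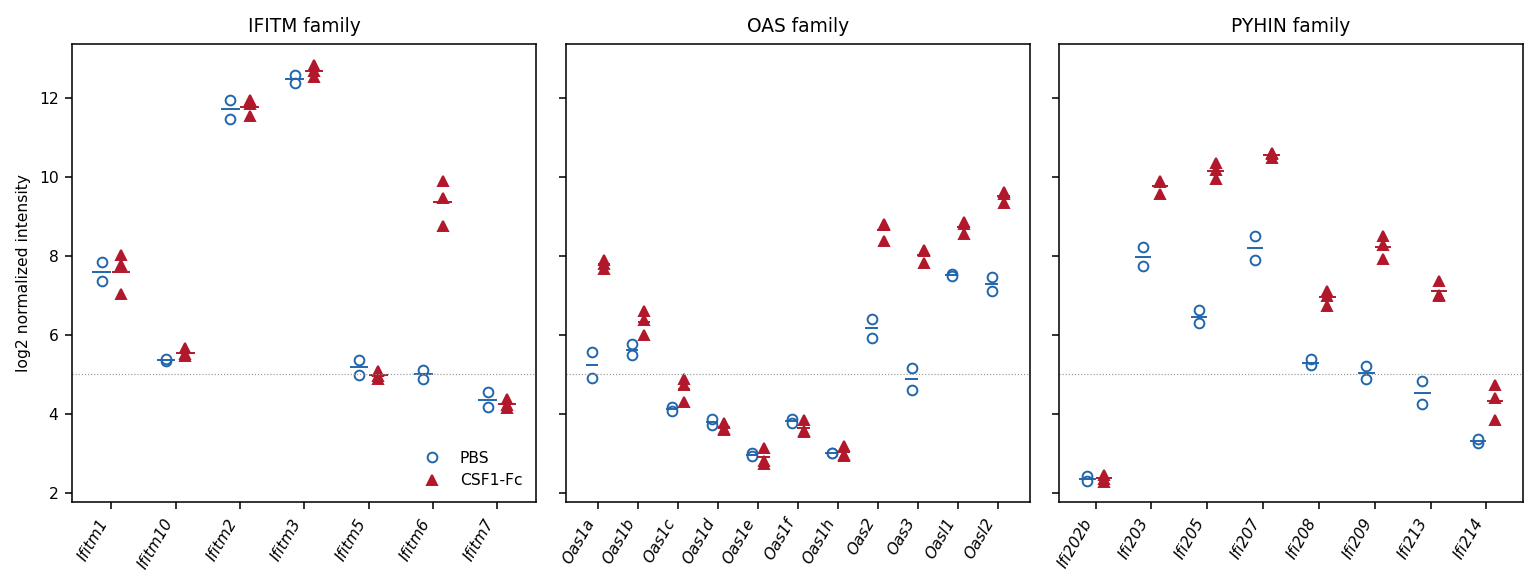
Log2 normalized intensity (vertical axis) of each IFITM, OAS and PYHIN gene in every liver, with PBS livers as open blue circles, CSF1-Fc livers as red triangles and group means as short lines. The dotted line marks 5, under which a mean was taken as dim; *Ifitm6* separates the groups while *Ifitm1*, *Ifitm2* and *Ifitm3* overlap, and 5 of the 11 OAS genes are dim in both groups.

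Guanylate-binding proteins are large GTPases that coat and break the vacuoles of intracellular pathogens. Of 7 members 6 rose, with a median of 1.32, and all 7 had every CSF1-Fc liver above both PBS livers. Over all named genes, 8.34% rose and 18.2% had every CSF1-Fc liver above both PBS livers. *Gbp2* was at 5.90 and 5.67 in PBS livers and at 7.94, 7.88 and 8.06 in CSF1-Fc livers, and rose by 2.18 (standard error 0.14, adjusted p = 0.00045). *Gbp9* was at 5.65 and 5.49 and at 7.50, 7.04 and 7.68, and rose by 1.84 (standard error 0.21, adjusted p = 0.00335). *Gbp3* was at 6.69 and 6.49 and at 8.10, 7.96 and 8.11, and rose by 1.47 (standard error 0.14, adjusted p = 0.00135). The treated livers kept close together for *Gbp2* and *Gbp3*, and both were called under every alternative tried.

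*Gbp8* was at 6.73 and 6.34 in PBS livers and at 7.82, 7.63 and 8.11 in CSF1-Fc livers (difference 1.32, adjusted p = 0.0107). *Gbp4* and *Gbp5*, the latter known for its part in inflammasome assembly, rose by 1.05 and 1.03 (adjusted p = 0.024 and 0.00906), *Gbp5* from a dim PBS mean. *Gbp7* was at 7.34 and 7.14 and at 8.02, 7.78 and 8.30, and its difference of 0.79 (95% interval 0.34 to 1.24) narrowly missed the threshold at an adjusted p of 0.0511. CSF1-Fc replicate 2 was the lowest treated liver for 6 of the 7 genes. Without PBS replicate 2 the count fell to 3, with an adjusted p of 0.181 for *Gbp4*, 0.0868 for *Gbp5* and 0.0912 for *Gbp8*. *Gbp4* was also not called when PBS replicate 1 (0.0956) or CSF1-Fc replicate 1 (0.0992) was left out. All 4 GBP genes with a promoter window held the ISRE core. Rows shared by *Gbp6*, *Gbp10* and *Gbp11* were not called (0.55 and 0.38), and a row shared by *Gbp5* and *Gbp2b* rose by 1.21 (adjusted p = 0.0239).

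The immunity-related GTPases (IRG) load onto the same vacuoles and are induced above all by interferon gamma. Neither of the 2 members was called. *Iigp1* was at 10.34 and 10.26 in PBS livers and at 10.03, 9.85 and 10.25 in CSF1-Fc livers. It was the member with every treated liver below both controls, by a difference of -0.25 (95% interval -0.63 to 0.13, adjusted p = 0.413). *Irgm1*, a regulator of the other IRG proteins, was at 9.40 and 9.05 and at 9.79, 9.74 and 9.53. Its difference was 0.46 (95% interval 0.06 to 0.86, adjusted p = 0.157, and under 0.05 without adjustment), and it was called with array weights.

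Other IRG genes were measured on rows outside the rule. A row shared by *Irgm2* and *Igtp* differed by 0.42 (adjusted p = 0.247), and a row shared by *Ifi47* and an olfactory receptor gene rose by 0.75 (adjusted p = 0.0285). *Gm12250*, also an IRG gene, was at 5.52 and 4.94 in PBS livers and at 8.08, 7.51 and 7.86 in CSF1-Fc livers, and rose by 2.59 (standard error 0.24, adjusted p = 0.00137). *Irgc1* was dim and differed by -0.11. The IRG genes thus ranged from -0.25 to 2.59, and the difference between families was not tested.

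PYHIN proteins bind foreign DNA in the nucleus or cytosol and can start interferon or inflammasome responses. Of 8 members 6 rose, with a median of 2.07, and these were the 6 that were not dim in both groups. *Ifi213* was among these 6 only through its CSF1-Fc mean. *Ifi205* was at 6.62 and 6.31 in PBS livers and at 10.34, 10.16 and 9.93 in CSF1-Fc livers. Its rise of 3.68 (standard error 0.18, adjusted p = 0.000357) was a fold of 12.8. *Ifi209* was at 5.20 and 4.88 and at 8.27, 7.92 and 8.51, and rose by 3.19 (standard error 0.21, adjusted p = 0.000453). For both genes the groups stood far apart.

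*Ifi213* went from 4.82 and 4.25 to 7.35, 7.0 and 6.97, a rise of 2.57 (adjusted p = 0.000978) from a dim PBS mean. *Ifi207* was at 8.49 and 7.90 in PBS livers and at 10.60, 10.47 and 10.57 in CSF1-Fc livers, and rose by 2.35 (adjusted p = 0.000937). *Ifi203* and *Ifi208* rose by 1.79 and 1.64 (adjusted p = 0.00287 and 0.00172). All 6 stayed called with each array left out in turn. *Ifi214* was dim, at 3.27 and 3.37 and at 4.40, 3.85 and 4.73, and was not called (difference 1.00, adjusted p = 0.0677). *Ifi202b*, known to be little expressed in C57BL/6 mice, was at 2.42 and 2.31 and at 2.35, 2.46 and 2.29 (difference 0.00, 95% interval -0.31 to 0.31). A row shared by *Ifi204* and *Ifi211* rose by 2.47 (adjusted p = 0.000961). These genes resemble each other, and probes that read more than 1 of them could not be told apart.

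The PYHIN promoters are shown because 5 of them carried the same 10 letters of the ISRE core, in capitals. All lie on chromosome 1, *Ifi203* at chr1:173942503-173942602, *Ifi207* at chr1:173741820-173741919, *Ifi213* at chr1:173599283-173599382 and *Ifi214* at chr1:173535968-173536067 on the minus strand and *Ifi208* at chr1:173673555-173673654 on the plus strand. The core began 35 to 79 bases before the start. These letters, GAAATCGAAA on either strand, were found in 16 of 32851 promoter windows (0.0487%), among which *Ddx58* was the other member. *Ifi208* and *Ifi213* shared an unbroken run of 78 bases, and *Ifi203* and *Ifi207* one of 12 bases. *Ifi214*, dim and not called, carried the same letters as the 4 that rose.
*Ifi203*: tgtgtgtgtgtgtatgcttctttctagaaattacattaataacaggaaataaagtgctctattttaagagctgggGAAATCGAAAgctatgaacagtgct
*Ifi207*: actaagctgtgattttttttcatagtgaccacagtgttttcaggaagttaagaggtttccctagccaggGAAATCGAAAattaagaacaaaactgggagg
*Ifi208*: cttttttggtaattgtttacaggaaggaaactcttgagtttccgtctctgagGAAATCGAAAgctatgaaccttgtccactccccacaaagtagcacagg
*Ifi213*: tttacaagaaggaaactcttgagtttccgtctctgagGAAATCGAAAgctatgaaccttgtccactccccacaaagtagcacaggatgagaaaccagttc
*Ifi214*: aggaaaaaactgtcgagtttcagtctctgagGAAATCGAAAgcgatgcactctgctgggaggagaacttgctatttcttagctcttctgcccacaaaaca

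Mx proteins are dynamin-like GTPases that trap viral nucleocapsids, and C57BL/6 mice carry a disrupted *Mx1* gene. *Mx1* was at 4.60 and 4.64 in PBS livers and at 6.59, 5.62 and 6.49 in CSF1-Fc livers. It rose by 1.61 (standard error 0.30, adjusted p = 0.0231) from a dim PBS mean, with CSF1-Fc replicate 2 the lowest treated liver. The call ended when any array but CSF1-Fc replicate 2 was left out, at adjusted p values of 0.0517 to 0.136. *Mx2* was at 5.74 and 6.37 and at 6.12, 5.68 and 6.34, and the groups overlapped (difference -0.01, 95% interval -0.65 to 0.62, adjusted p = 0.987).

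Of the 5 sensors 2 rose. *Zbp1*, which recognises Z-form nucleic acid and can start cell death, was at 7.10 and 6.49 in PBS livers and at 8.63, 8.68 and 8.50 in CSF1-Fc livers (difference 1.81, standard error 0.20, adjusted p = 0.00302). *Dhx58* (LGP2), which tunes its sister helicases, was at 7.65 and 7.54 and at 9.17, 8.75 and 9.01 (difference 1.38, standard error 0.16, adjusted p = 0.00377). The helicases that sense viral RNA and signal on it were not called. *Ddx58* (RIG-I) differed by 0.67 (95% interval 0.16 to 1.17, adjusted p = 0.118). *Ifih1* (MDA5) was at 8.90 and 9.06 and at 9.06, 8.82 and 9.42, and its groups overlapped (difference 0.12, 95% interval -0.36 to 0.60, adjusted p = 0.782). *Eif2ak2* (PKR), the kinase that stops translation on double-stranded RNA, was at 7.25 and 7.39 and at 7.84, 7.58 and 8.25 (difference 0.57, adjusted p = 0.176). *Ddx58*, *Ifih1* and *Eif2ak2* all held the ISRE core, beginning 3, 33 and 19 bases after the start. No promoter window was found for *Zbp1* and *Dhx58*, so the sensors that rose could not be compared with them.

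*Isg15*, a ubiquitin-like modifier, was at 4.03 and 4.19 in PBS livers and at 5.26, 5.29 and 5.20 in CSF1-Fc livers. It rose by 1.14 (standard error 0.13, adjusted p = 0.00302) from a dim PBS mean, and the treated livers were almost level. *Usp18*, which removes ISG15 from proteins and restrains the type I receptor, was at 8.53 and 8.11 and at 9.67, 9.25 and 9.55, a rise of 1.17 (adjusted p = 0.0154). Its adjusted p was 0.124 with PBS replicate 2 left out and 0.0675 with CSF1-Fc replicate 1 left out. *Parp14*, an ADP-ribosyltransferase, was at 8.21 and 8.24 and at 8.92, 8.74 and 9.21. It rose by 0.73 (adjusted p = 0.0494), a call that ended when any array but CSF1-Fc replicate 2 was left out, at adjusted p values of 0.0556 to 0.237. Its partners *Parp9* and *Dtx3l* share rows, which differed by 0.03 and -0.22 and were not called.

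The Ifi27 group encodes small hydrophobic proteins. *Ifi27l2a* was at 7.04 and 6.35 in PBS livers and at 9.88, 10.44 and 9.42 in CSF1-Fc livers, and rose by 3.22 (standard error 0.34, adjusted p = 0.0023), a fold of 9.32. Its neighbour *Ifi27* was at 9.41 and 9.21 and at 9.71, 9.71 and 8.98, and the groups overlapped (difference 0.16, 95% interval -0.45 to 0.76, adjusted p = 0.772). *Ifi27l2b* was at 6.34 and 5.64 and at 6.99, 6.50 and 6.82 and was not called (0.78, adjusted p = 0.123). The interval of *Ifi27* did not reach the change of *Ifi27l2a*. The 3 genes are consecutive on chromosome 12.

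Of the 8 further effectors 3 rose. *Ifi30*, a lysosomal thiol reductase used in antigen processing, was at 8.09 and 7.90 in PBS livers and at 10.72, 11.02 and 10.73 in CSF1-Fc livers. It rose by 2.83 (standard error 0.15, adjusted p = 0.000384) and was called under every alternative tried. *Samd9l*, which restricts poxviruses, was at 6.94 and 6.57 and at 8.22, 7.86 and 8.20 (difference 1.34, adjusted p = 0.00749, and 0.0707 without PBS replicate 2). *Rsad2* (viperin), which makes a chain-ending nucleotide, was at 7.35 and 7.71 and at 9.04, 8.30 and 8.85 (difference 1.20, adjusted p = 0.033). Its call also ended when any array but CSF1-Fc replicate 2 was left out (adjusted p = 0.0681 to 0.19). *Bst2* (tetherin), which holds budding virus at the cell surface, *Isg20*, an exonuclease, and *Ifi35* differed by 0.53, 0.58 and 0.51 and were not called. Every treated liver lay above both controls for these genes, as for 18.2% of all named genes. *Isg20l2* was at 7.77 and 7.59 and at 7.64, 7.62 and 7.79 (difference 0.00), and *Ifi44l* was dim, at 3.12 and 3.23 and at 3.05, 3.26 and 2.94 (difference -0.09). The groups overlapped for both.

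**Figure D3:**
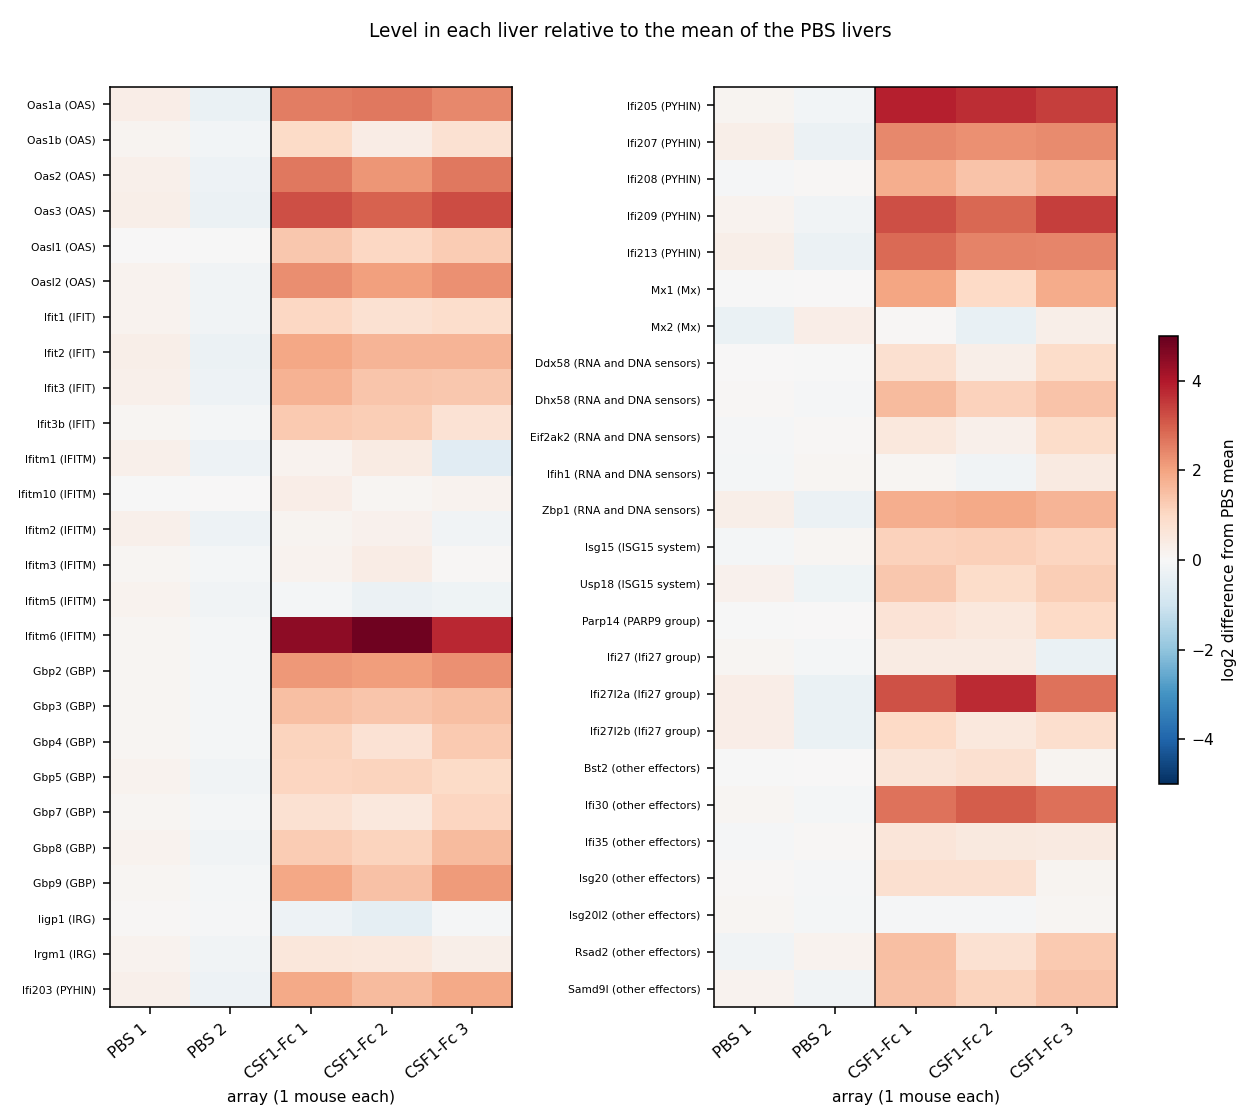
Colour gives the log2 intensity of each member in each liver minus the mean of the PBS livers (columns are arrays, rows are the 51 members that were not dim in both groups, with the family in brackets). CSF1-Fc livers are red over most rows, the columns of PBS replicate 1 are slightly redder than those of PBS replicate 2, and IFITM genes other than *Ifitm6* stay pale.

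PBS replicate 1 lay above PBS replicate 2 for 45 of 61 members (73.8%), for 47.2% of all named genes and for 67.1% of the 1570 named genes that rose. The median difference between these controls was 0.20 over the members and -0.01 over all named genes, and it was 0.33 over the 32 members that rose and 0.11 over all named genes that rose. Among treated livers, CSF1-Fc replicate 1 was the lowest for 1 member, replicate 2 for 35 and replicate 3 for 25, where over all genes the shares were 18.6%, 37.8% and 43.6%. Over all genes that rose they were 15.3%, 49.8% and 34.9%, and over the 32 members that rose they were 3.12%, 65.6% and 31.2%. The order depended on the family. CSF1-Fc replicate 2 was the lowest for 6 of 7 GBP genes and 4 of 5 sensors, and replicate 3 was the lowest for 5 of 7 IFITM genes. These are descriptions, since genes of 1 liver are not replicates.

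Interferon genes themselves were measured at low levels. Of 14 such genes none was called in limma, 13 were dim in both groups, and their differences ran from -0.50 to 0.26, with 0 higher and 2 lower at an unadjusted p under 0.05. *Ifnab* was at 4.00 and 4.35 in PBS livers and at 3.92, 3.64 and 3.46 in CSF1-Fc livers (difference -0.50, adjusted p = 0.177). *Ifnb1*, interferon beta, differed by -0.37 (adjusted p = 0.189), and *Ifng*, interferon gamma, by 0.21 (adjusted p = 0.522). Dim rows cannot show whether a small amount of message was made.

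Of 6 interferon receptor genes 3 rose. Beside this count and those of the pathway lists that follow, 8.34% of all named genes rose. *Il10rb*, a chain shared by the receptors for interferon lambda and IL-10, rose by 1.90 (adjusted p = 0.00114). *Ifngr1*, which binds interferon gamma, was at 8.65 and 8.63 in PBS livers and at 10.15, 10.14 and 10.24 in CSF1-Fc livers, and rose by 1.54 (standard error 0.12, adjusted p = 0.000757). Its partner *Ifngr2* rose by 0.80 (adjusted p = 0.0495), a call that ended with each array but CSF1-Fc replicate 3 left out, at adjusted p values of 0.0908 to 0.305. The type I receptor chains *Ifnar1* and *Ifnar2* differed by 0.23 (95% interval -0.05 to 0.52) and 0.14 (95% interval -0.15 to 0.43) and were not called. None of 4 JAK and STAT genes was called, with 1 higher at an unadjusted p under 0.05. That was *Tyk2* (0.38, adjusted p = 0.15), and *Stat2* differed by 0.04 (95% interval -0.67 to 0.75).

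IRF factors bind the ISRE or sites like it. Of 8 such genes 4 rose. *Irf8*, a factor of the monocyte and macrophage line, rose by 2.26 (adjusted p = 0.0006), and *Irf5*, also active in macrophages, by 1.38 (adjusted p = 0.00294). *Irf7*, the main driver of interferon alpha genes, was at 9.10 and 8.73 in PBS livers and at 10.95, 10.91 and 10.71 in CSF1-Fc livers, and rose by 1.94 (standard error 0.17, adjusted p = 0.000996). *Irf4* rose by 1.21 (adjusted p = 0.0207) from a dim PBS mean, and its adjusted p was 0.0838 to 0.135 with either PBS array or CSF1-Fc replicate 1 left out. *Irf1* (0.63, adjusted p = 0.0961) and *Irf9* (0.14, adjusted p = 0.637) were not called.

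Of 11 genes of nucleic acid sensing 5 rose. The largest changes were those of *Tlr7*, the endosomal receptor for single-stranded RNA (2.74, adjusted p = 0.000732), and *Sting1*, the adaptor of the cytosolic DNA path (2.36, adjusted p = 0.0006). *Unc93b1*, which carries such receptors to endosomes, rose by 1.47 (adjusted p = 0.00146) and *Tlr9*, a receptor for DNA, by 1.30 (adjusted p = 0.0469). The adjusted p of *Tlr9* was between 0.0591 and 0.23 with either PBS array, CSF1-Fc replicate 1 or CSF1-Fc replicate 3 left out. Of 7 genes that restrain the response 2 rose, *Ptpn6*, the phosphatase SHP-1, by 1.67 (adjusted p = 0.00305) and *Trex1*, which degrades stray DNA, by 1.1 (adjusted p = 0.0168). The call of *Trex1* ended when either PBS array or CSF1-Fc replicate 1 was left out (adjusted p = 0.0747 to 0.134).

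**Figure D4:**
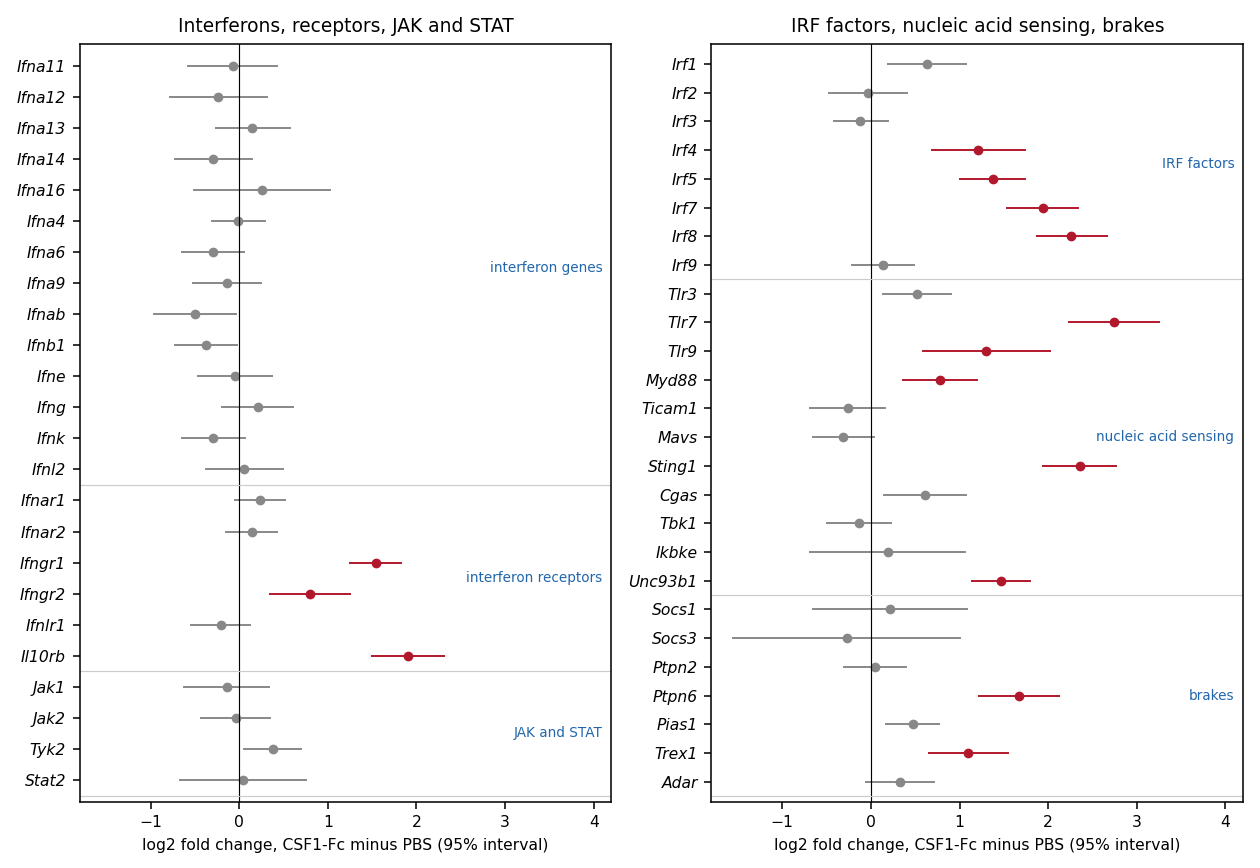
Log2 fold change (CSF1-Fc minus PBS, horizontal axis) with its 95% interval for the interferon genes, receptors, JAK and STAT genes, IRF factors, nucleic acid sensing genes and brakes on the response; red points passed an adjusted p under 0.05 in limma. Interferon genes lie between -0.50 and 0.26 and are all grey, and *Ifngr1*, *Irf7*, *Irf8*, *Tlr7* and *Sting1* are among the red points.

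Interferon targets outside the effector families were listed for comparison. Of 27 such genes 17 rose and 0 fell, with a median of 1.09. Over all named genes 8.34% rose, 3.95% fell and the median was -0.08. At an unadjusted p under 0.05, 24 of the 27 were higher and 0 lower, a measure not counted over all genes. *Ms4a4c* rose by 3.83 (standard error 0.14, adjusted p = 0.000282), *Slfn2* by 3.20 (adjusted p = 0.000422), *Slfn1* by 2.83 (adjusted p = 0.000376) and *Phf11d* by 2.46 (adjusted p = 0.000463). *Slfn1* was at 4.05 and 4.06 in PBS livers, which is dim, and at 7.02, 6.68 and 6.97 in CSF1-Fc livers. *Trim30a* rose by 2.28 (adjusted p = 0.000961). The chemokines *Cxcl10* and *Cxcl9*, which draw activated T cells, rose by 1.50 and 1.21 (adjusted p = 0.0298 and 0.0321). Both calls ended when either PBS array or CSF1-Fc replicate 1 was left out (adjusted p = 0.0658 to 0.214), and that of *Cxcl10* also when CSF1-Fc replicate 2 was (0.056). The macrophage, monocyte and neutrophil markers given above moved in the same livers, and their part in these changes was not tested.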

How the data were processed

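Liver RNA was amplified with the NuGEN Pico SL kit, labelled with biotin and read on 1-colour Affymetrix arrays (Mouse Gene 1.1 ST). The labels name Trizol for extraction and the methods name RNA Bee. The authors scanned the arrays, used Expression Console (1.1 in the submitters' processing notes) for quality control, and worked in Partek Genomics Suite. Deposited values are the authors' normalized intensity per transcript row on a linear scale. How they were background-corrected, normalized and summarised was not given in the sources used here. Arrays of bone marrow-derived macrophages of the study were not analysed here.

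Log2 values of the deposited intensities were taken with a pseudocount of 0 and no filter, and fitted with limma 3.58.1 in R 4.3.3 (1 mean per group, eBayes, 3 residual and 3.34 prior degrees of freedom). Adjustment was by Benjamini-Hochberg over 35556 rows. Symbols came from the platform annotation: 21218 rows had 1 symbol, 1881 had several and 12457 were unnamed here. The row with the highest mean stood for a gene with several rows. Of rows with several symbols, 9 concerned members and were kept apart. Groups came from the sample labels. The number of arrays limits the precision, and no sequencing depth applies.

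Members, families, pathway lists and marker lists were chosen with earlier results of these data known. The PYHIN family was widened from Ifi20x symbols to Ifi21x symbols after the symbols had been seen, which added *Ifi213* and *Ifi214*. Values in every array were given for up to 4 called members of each family with the largest changes, and for up to 2 uncalled ones, taken by the largest adjusted p. *Oas1b* and *Ifitm3* were shown as well, after their values had been seen. From each pathway list the rule took the 4 largest called changes, or the lowest p where none was called. *Ifnb1*, *Ifng*, *Ifnar1*, *Ifnar2*, *Stat2*, *Irf1*, *Irf9*, *Irgc1*, *Cxcl9*, *Cxcl10* and *Trim30a* were named after their values had been seen. No row with 1 symbol was matched for *Ly6a*, *Tgtp1*, *Tgtp2* and *Gvin1*. Promoter windows are those of RefSeq on GRCm38.p6, matched by gene ID.

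The alternatives tried were each array left out, the replicate number as a block, array weights (statmod 1.5.0), a robust variance trend, no moderation, the mean over rows of a gene, rows with 1 symbol, dim rows left out, and arrays rescaled by quantiles, by their medians or by 21 liver secreted protein genes. Counting rows with several symbols was added after seeing the data. The fit was tested on simulated data.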

Additional observations from a re-analysis of the deposited data

How the results depend on the processing

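The count of 32 members that rose lay between 30 and 44 under the alternatives that kept all arrays, except that it was 5 with no moderation of the variance, and between 20 and 35 with each array left out. No member was lower under any of them. The count of 30 was that of the replicate block. There CSF1-Fc replicate 3 had no PBS mouse of its number and did not enter the difference. The OAS count of 5 became 0 with no moderation, the IFIT count of 4 became 0, the IFITM count of 1 became 0 and the GBP count of 6 became 2. With each array left out they were 4 to 6, 1 to 4, 1 and 3 to 7. The IRG count of 0 became 1 with array weights and 1 when rows with several symbols were counted. The 5 members called under every alternative were *Gbp2*, *Gbp3*, *Ifi205*, *Isg15* and *Ifi30* (*Isg15* was not tested where dim rows were left out), and 20 were called with each array left out in turn.

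Signs turned only for genes near 0 that were uncalled in each case. With secreted protein centring, which moved the median of all rows by 0.10, *Oas1e* was at 0.02, *Mx2* at 0.08 and *Ifi44l* at 0.01. With quantile normalization *Ifitm1* was at -0.05, *Ifitm2* at -0.07 and *Isg20l2* at -0.05. With array weights *Ifi202b* was at -0.01, *Mx2* at 0.04 and *Isg20l2* at -0.03. With each array left out the ranges were -0.19 to 0.00 for *Oas1e*, -0.08 to 0.05 for *Oas1h*, -0.23 to 0.29 for *Ifitm1*, -0.18 to 0.32 for *Ifitm2*, -0.30 to 0.08 for *Ifitm7*, -0.05 to 0.06 for *Ifi202b*, -0.33 to 0.30 for *Mx2*, -0.04 to 0.26 for *Ifih1*, -0.09 to 0.09 for *Isg20l2* and -0.16 to 0.33 for *Stat2*. The cause was not tested.

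The replicate numbers belonged to different mice, and deviations from the group means correlated at -0.07 for number 1 and -0.25 for number 2, so the numbers were not taken as pairs. With the replicate block 30 members were higher, and the calls of *Parp14* (adjusted p = 0.121) and *Rsad2* (0.0921) ended. Of the pathway genes named, those of *Ifngr2* (0.0813), *Irf4* (0.065), *Tlr9* (0.0564) and *Cxcl9* (0.0717) ended too. The call of *Ifngr2* also ended with median centring (adjusted p = 0.0524) and secreted protein centring (0.0578), and those of *Tlr9* (0.0514) and *Parp14* (0.0523) with the robust variance trend. With the block *Oas1e* was at 0.00, *Ifih1* at -0.04, *Isg20l2* at -0.05 and *Stat2* at -0.16. Over all genes, 1570 were higher and 743 lower as reported, and 1182 and 481 with the block. These were 419 and 92 with no moderation and 2313 and 2231 with array weights, so rises were 67.9% of the calls as reported and 50.9% with array weights.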
